A study of Mus musculus with 4 samples.

Results

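The proteasome genes are the mouse genes whose array name starts with Psm and one of the letters a to g, followed by a number, and a gene is a member by that name alone. The rule took 49 of the 28146 gene names on the array and 76 of its 41174 probes. Psmc3ip matches the rule by its spelling but encodes a partner protein of meiotic recombination and no proteasome subunit, so it is held apart and the other 48 genes are counted here. Of these, 14 encode the alpha and beta subunits of the core particle, 3 the exchangeable immunoproteasome subunits, 2 tissue-restricted core subunits, 6 the ATPase ring and 11 the non-ATPase part of the regulatory particle. The remaining genes encode 4 core and 3 regulatory assembly chaperones, 4 activators and 1 inhibitor.

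The proteasome is the protease that degrades proteins marked with ubiquitin in the cytosol and nucleus. Its barrel-shaped core carries the cutting sites inside, on beta subunits, and opens when a cap binds: the regulatory particle, whose ATPase ring unfolds ubiquitin-marked substrates, or ubiquitin-independent activators. In cells stimulated by interferon, 3 catalytic beta subunits are replaced by immunoproteasome counterparts that favour peptides for antigen presentation. In developing neurons the proteasome turns over cell cycle regulators and proteins of growing axons and synapses.

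RNA was measured in fetal brain of C57BL/6J mice. In the food deprivation comparison (FD) the dams had no food overnight on gestation day 17, and in the food restriction comparison (FR) they received 50% of the control intake from gestation day 10 to 17, with caesarean section on gestation day 18. Control dams ate freely. Brains of 5 fetuses per group gave 1 pool of RNA, and each treated pool was set against a control pool on 2 arrays, with the treated pool in Cy5 on array 1 and in Cy3 on array 2. Each condition is thus 1 pool, the arrays are technical repeats, and no test between diets is possible. The sources used here do not state whether FD and FR shared a control pool, how many litters gave the fetuses, or the day on which FD fetuses were taken. The skeletal muscle marker levels given below differed between the FD and FR controls. A comparison of FD with FR therefore also holds any difference between the controls. In bulk tissue, fewer cells of a type and less RNA per cell cannot be told apart.

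The results turn on a few probes of 60 bases, whose letters follow because different probes of 1 gene gave different values. The array files place them on build mm9 and do not say which exon or untranslated region they lie in. The 3 probes of Psme4, the first on 1 stretch at chr11:30780168-30780227 and the other two across introns at chr11:30776868-30778426 and chr11:30721054-30723098, are:
Psme4 A_51_P166198: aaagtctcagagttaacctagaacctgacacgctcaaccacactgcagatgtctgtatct
Psme4 A_52_P344897: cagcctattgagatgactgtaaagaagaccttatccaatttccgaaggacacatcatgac
Psme4 A_52_P111438: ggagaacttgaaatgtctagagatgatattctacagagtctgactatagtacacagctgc
The chymotrypsin-like core subunit Psmb5 (chr14:55233161-55233220, minus strand) is followed by its interferon-inducible replacement Psmb8 on a probe across an intron (chr17:34337828-34338152) and on a second probe (chr17:34337771-34337830). Psmb9 (chr17:34319174-34319233, minus strand) and the intron-spanning Psmd9 probe (chr5:123689746-123691886) close the set:
Psmb5 A_51_P269728: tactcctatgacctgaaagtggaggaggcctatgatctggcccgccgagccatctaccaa
Psmb8 A_51_P345366: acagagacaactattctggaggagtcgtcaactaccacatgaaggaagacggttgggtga
Psmb8 A_51_P345367: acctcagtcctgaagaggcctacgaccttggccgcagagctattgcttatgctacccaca
Psmb9 A_51_P369803: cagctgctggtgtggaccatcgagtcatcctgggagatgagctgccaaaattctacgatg
Psmd9 A_52_P469512: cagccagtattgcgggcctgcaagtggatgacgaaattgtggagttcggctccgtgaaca

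How many of the 48 genes could be measured turned on how uneven spots are treated. The scanner software marks a spot whose pixels are uneven, and on these arrays it did so almost only in the green channel and on bright spots. Of the readings of proteasome probes, 80 carried this mark, 80 in green and 0 in red, which is 22.4% to 28.9% of proteasome probes per array against 3.55% to 7.96% of all probes. With marked spots left out, 31 of the 48 genes were measured in FD and 32 in FR, and 26 had 1 probe measured on all 4 arrays. With marked spots kept, all 48 were measured. Values below leave marked spots out unless the sentence says that they were kept, and each gene is represented by its brightest measured probe. No proteasome probe was saturated.

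Most members lay within 0.2 log2 units of the control, 30 of 31 measured in FD and 22 of 32 in FR, against 88.6% and 76.9% of all measured genes. With marked spots kept, 42 of 48 members lay within it in FD, against 87.6% of all genes. In FR 31 of 48 did so, or 64.6%, against 75.1% of all genes. No member was 1.5-fold higher or lower on both arrays in FD or in FR, where 0.089% and 0.128% of 17970 measured genes were higher and lower in FD and 0.582% and 0.431% of 18569 in FR. The median log2(treated/control) of the 31 members in FD was 0.02, against 0.00 for all measured genes. The median of the 32 members in FR was 0.06, against 0.00 for all measured genes. At a smaller size of 1.2-fold on both arrays, 0 members passed in FD, where 1.18% of all genes were higher and 1% lower. In FR, Psme4 and Psmg4 were 1.2-fold higher and 0 members lower, which is 6.25% of the 32 members against 3.85% of all genes higher and 4.2% lower. With marked spots kept, Psmd12 joined them and Psmg3 was 1.2-fold lower in FR, against 4.06% of all genes higher and 4.49% lower. The technical SD of a dye-swap mean was 0.07 log2 units over 16768 genes and 0.07 over the 26 members. This SD was taken from how far the difference between the arrays of FD departed from that of FR. A dye effect of a gene common to both pairs therefore cancels in it.

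**Figure D1:**
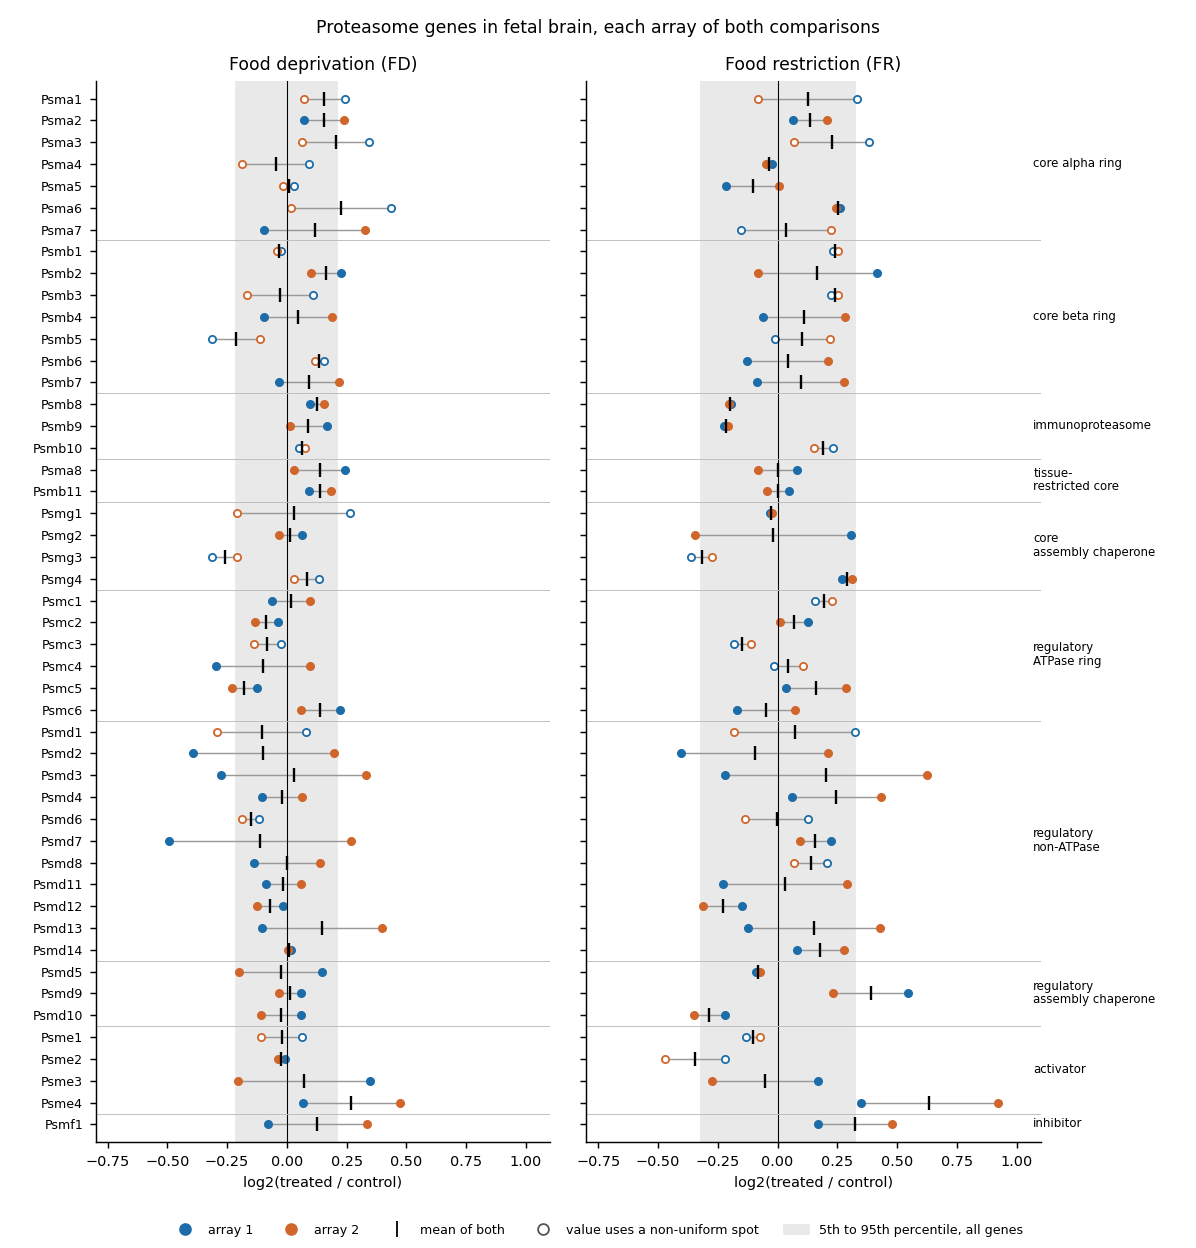
The 48 proteasome genes in rows by subunit class, with log2(treated/control) on the horizontal axis for FD (left) and FR (right); coloured points are the arrays, black ticks their mean, open points values that use a spot marked as uneven, and the grey band spans the 5th to 95th percentile of all measured genes. Most pairs straddle 0 or lie within the band, Psme4 reaches 0.92 on array 2 of FR, and several non-ATPase subunits have array 1 low and array 2 high in both comparisons.

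The alpha ring forms the outer gates of the core. Psma6 measured 0.26 and 0.25 on the arrays of FR, a mean of 0.25 or 1.19-fold higher. In FD its value exists with a marked spot kept only, at 0.44 and 0.02, so the FD arrays differ far more than those of FR. Psma2 measured 0.07 and 0.24 in FD and 0.06 and 0.21 in FR, above 0 on each of the 4 arrays. Psma7 measured -0.10 and 0.33 in FD, on either side of 0. Psma5 measured -0.21 and 0.01 in FR, and Psma4 measured -0.03 and -0.05. Psma1 and Psma3 were measured only with marked spots kept: Psma3 gave 0.34 and 0.06 in FD and 0.38 and 0.07 in FR, and Psma1 gave 0.24 and 0.07 in FD and 0.33 and -0.08 in FR. Over the whole ring with marked spots kept, the 7 alpha genes had a median of 0.15 in FD and 0.13 in FR.

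The beta ring carries the cutting sites. Psmb2 measured 0.23 and 0.10 in FD, a mean of 0.16, and 0.42 and -0.08 in FR. Psmb4, a structural beta subunit, measured -0.10 and 0.19 in FD and -0.06 and 0.28 in FR, so array 2 gave the higher value both times. Of the 3 catalytic subunits, Psmb7 (trypsin-like) measured -0.03 and 0.22 in FD and -0.08 and 0.28 in FR. Psmb6 (caspase-like) measured -0.13 and 0.21 in FR and, with a marked spot kept, 0.15 and 0.12 in FD. Psmb5 (chymotrypsin-like), the target of bortezomib, was measured only with marked spots kept, at -0.31 and -0.11 in FD and -0.01 and 0.22 in FR. None of the 3 stood on one side of 0 on all 4 arrays. The structural subunits Psmb1 and Psmb3 also rest on marked spots: Psmb1 measured 0.23 and 0.25 in FR and -0.02 and -0.04 in FD, and Psmb3 measured 0.23 and 0.25 in FR and 0.11 and -0.17 in FD.

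The core as a whole, alpha and beta rings together, had a median of 0.12 in FD over 5 measured genes and 0.10 in FR over 8 of its 14 genes. The core median was -0.03 on array 1 and 0.22 on array 2 of FD, and -0.04 and 0.21 in FR, so its sign differed between the arrays. With marked spots kept the medians were 0.10 and 0.12 over all 14 genes. In FD 2 of the 5 core genes were above 0 on both arrays and 0 below, and in FR 2 of 8 were above and 1 below. Across all genes 25.5% were above 0 and 23.3% below on both arrays of FD, and 28.3% and 27.4% in FR.

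Of the 3 immunoproteasome subunits, Psmb8 and Psmb9 had opposite signs under the diets and Psmb10 did not. The log2 level of Psmb8 in the FD pool was 7.72 and 7.85 against 7.62 and 7.69 in its control, and in the FR pool 7.35 and 7.34 against 7.54 and 7.55. The log2 ratio of Psmb8 was therefore 0.10 and 0.15 in FD and -0.19 and -0.20 in FR. Psmb9, which replaces Psmb6, measured 7.53 and 7.52 in the FD pool against 7.36 and 7.51 in its control, and 7.24 and 7.25 in the FR pool against 7.46 in its control on both arrays. Its log2 ratio was 0.17 and 0.01 in FD and -0.22 and -0.21 in FR. In FR both genes were below control on both arrays, as were 27.4% of all genes. The fold was 1.15 for Psmb8 and 1.16 for Psmb9. The SD between arrays was 0.01 for each and covers only technical repeats of the same pools.

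The difference between diets, log2(FD/control) minus log2(FR/control) on arrays of equal dye orientation, was 0.29 and 0.36 for Psmb8 and 0.39 and 0.22 for Psmb9. Psmb8 was the only member at least 1.2-fold higher in this difference on both arrays, of 26 measured, against 2.87% of 16768 genes. The second Psmb8 probe, A_51_P345367, which ends where the first begins, measured 0.16 and -0.04 in FD and -0.09 and -0.07 in FR, so it repeated the sign on both arrays of FR but not of FD. With the background fit that includes the bright patch of array 2 of FR, Psmb8 was at -0.10 and Psmb9 at -0.12 in FR, and in the scanner software's own ratio they were at -0.21 and -0.45. Both probes are dim, and the offset added in background correction draws ratios of dim spots towards 0. Psmb10, which replaces Psmb7, was measured with marked spots kept only and lay above control under both diets: 0.23 and 0.15, against 0.05 and 0.07 in FD.

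Psmb8 and Psmb9 lie next to the peptide transporter genes Tap1 and Tap2 in the mouse histocompatibility region. In the RefSeq promoter windows on GRCm38.p6, 250 bases before to 50 after each start, those of Psmb9 (minus strand) and Tap1 (plus strand) share 275 bases, and that of Psmb8 begins 10339 bases past Tap1's. Tap1 measured 0.00 and 0.16 in FD and -0.15 and 0.21 in FR, so it did not follow Psmb9 on both arrays. Tap2 measured 0.04 and 0.17 in FD and 0.10 and 0.12 in FR. The 2 windows are shown because these neighbouring genes had opposite signs under the diets. Capitals mark TTCNNNGAA, the gamma-interferon activation site, in Psmb8 (chr17:34197945-34198244) and the CCAAT box, on the reverse strand, in Psmb9 (chr17:34187281-34187580):
Psmb8: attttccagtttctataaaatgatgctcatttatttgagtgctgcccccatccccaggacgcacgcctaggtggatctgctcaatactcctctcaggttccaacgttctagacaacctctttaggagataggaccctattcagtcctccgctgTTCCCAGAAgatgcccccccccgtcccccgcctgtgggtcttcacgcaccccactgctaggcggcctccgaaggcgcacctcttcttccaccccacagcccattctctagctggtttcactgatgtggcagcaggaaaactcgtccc
Psmb9: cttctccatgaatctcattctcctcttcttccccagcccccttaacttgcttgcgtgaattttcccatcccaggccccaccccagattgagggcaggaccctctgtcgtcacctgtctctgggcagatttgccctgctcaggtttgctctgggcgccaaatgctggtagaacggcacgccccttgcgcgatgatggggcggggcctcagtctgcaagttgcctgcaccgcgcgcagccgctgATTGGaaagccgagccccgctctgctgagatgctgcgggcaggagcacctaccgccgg
A match of TTCNNNGAA stood in 3 of 43 member promoters (Psmb8, Psmd2 and Psmg1), or 6.98%, against 8.30% of all 32851 promoters. GAAA followed by any 2 bases and GAAA, the core of the interferon-stimulated response element, stood in 5 (Psmb3, Psmd4, Psmd9, Psme1 and Psmg4), or 11.6% against 3.44%. CCAAT stood in 14, or 32.6% against 37.4%. These motifs were searched on both strands, and a match is a run of letters and not a bound site.

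The summed levels of microglia markers differed in the same directions, by small amounts. The summed log2 level of 10 microglia and macrophage markers was 12.17 and 12.16 in the FD pool against 12.07 and 12.09 in its control, and 11.98 and 11.95 in the FR pool against 12.02 and 12.01. All 10 markers were measured, with a median of 0.02 in FD and -0.04 in FR. In FD 5 markers were above control on both arrays and 1 below, against 25.5% and 23.3% of all genes. Means in FD ran from 0.27 for Tyrobp to -0.13 for Cx3cr1. In FR 1 was above and 4 below, against 28.3% and 27.4% of all genes. Means in FR ran from 0.10 for Tyrobp to -0.25 for Cx3cr1. Of 15 genes of antigen presentation and the interferon response, the measured ones had a median of 0.07 in FD and -0.10 in FR. In FR 3 of 14 were above control on both arrays and 6 below, against the same 28.3% and 27.4% of all genes. Isg15, an interferon-induced ubiquitin-like protein, measured -0.73 and -0.45 in FR, and Usp18, which removes it from proteins, measured -0.39 and -0.24. Irf1, an interferon-induced transcription factor, measured 0.22 and 0.23 in FR, on the other side. B2m, the class I light chain, measured 0.37 and -0.01 in FD and 0.09 and -0.50 in FR. The part of microglia in the Psmb8 and Psmb9 values was not tested.

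**Figure D2:**
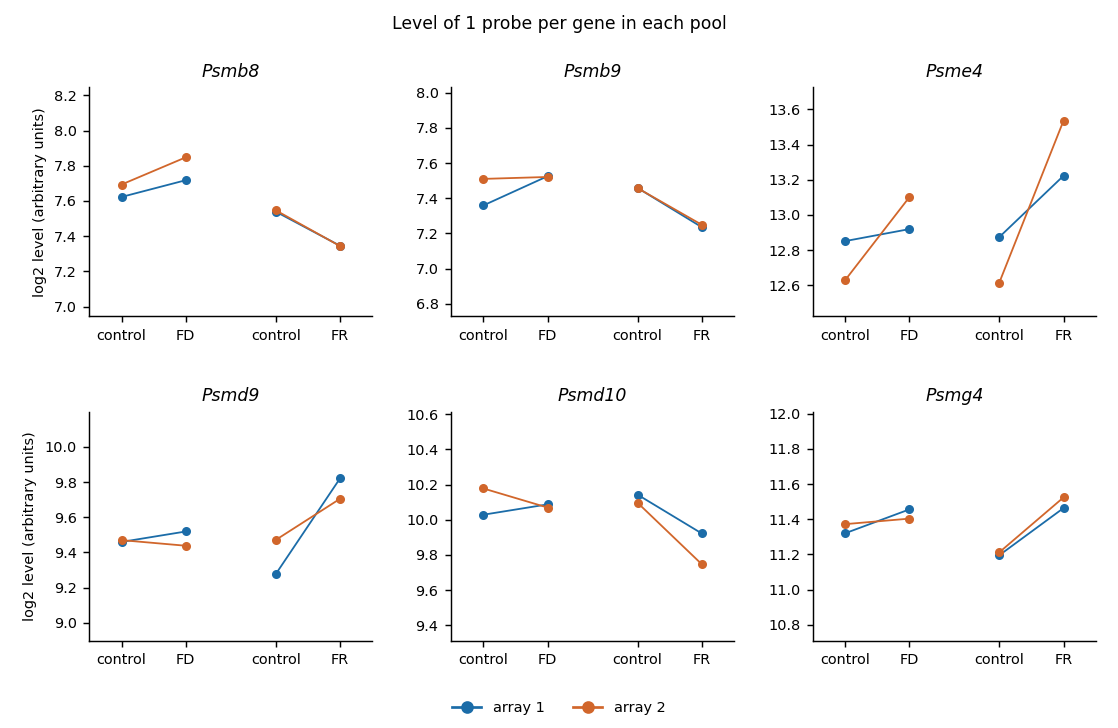
Log2 level in arbitrary units of 1 probe of Psmb8, Psmb9, Psme4, Psmd9, Psmd10 and Psmg4 in each treated pool and its control, with a line per array and a vertical axis of equal length in each panel; Psmg4 in FD uses a spot marked as uneven. Psmb8 and Psmb9 go up in FD and down in FR, Psme4, Psmd9 and Psmg4 go up and Psmd10 down on both arrays of FR.

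The ATPase ring unfolds substrates and threads them into the core. Psmc5 measured -0.12 and -0.23 in FD, a mean of -0.18, and 0.04 and 0.28 in FR, a mean of 0.16. Psmc2 measured -0.04 and -0.13 in FD and 0.13 and 0.01 in FR, so both genes were below control on both arrays of FD and above it on both arrays of FR. A brighter Psmc5 probe with marked spots, A_52_P657435, measured 0.29 and -0.18 in FD and 0.33 and -0.25 in FR and did not repeat the difference. With marked spots kept, Psmc2 is also represented by a brighter probe, at -0.01 in FD and -0.03 in FR. Psmc6 measured 0.22 and 0.06 in FD and 0.37 and 0.28 in FR on its probe A_51_P509941, but -0.17 and 0.08 in FR on the brighter A_52_P617186. Psmc4 measured -0.30 and 0.09 in FD, and Psmc1 -0.06 and 0.10. In FR, Psmc1 measured 0.16 and 0.23 and Psmc4 -0.02 and 0.11 with marked spots kept. Psmc3, seen only with marked spots, measured -0.03 and -0.14 in FD and -0.18 and -0.11 in FR.

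The non-ATPase subunits hold the receptors for ubiquitin and the enzyme that removes it. Psmd4, a ubiquitin receptor, measured 0.06 and 0.43 in FR, a mean of 0.25, and -0.11 and 0.06 in FD. Psmd14, the deubiquitinase of the lid, measured 0.08 and 0.28 in FR and 0.02 and 0.00 in FD on A_51_P143737, above 0 on all 4 arrays. Psmd7, its enzymatically silent partner, measured -0.49 and 0.27 in FD on A_52_P676913 and 0.22 and 0.09 in FR on A_52_P171993. These 3 genes were lower in FD than in FR on both arrays, with a mean FD minus FR of -0.27 for Psmd4, -0.17 for Psmd14 and -0.20 for Psmd7, the last on A_52_P171993. On the brightest Psmd7 probe, A_51_P487933, which has marked spots, FD was instead higher than FR, by 0.09 and 0.20. Another Psmd14 probe with marked spots, A_52_P652212, measured 0.12 and -0.01 in FD and -0.10 and 0.21 in FR. On that probe FD was higher than FR on array 1 and lower on array 2. Psmd8, another lid subunit, measured -0.14 and 0.14 in FD and, with marked spots kept, 0.21 and 0.07 in FR. Psmd1, a large scaffold of the base, and the lid subunit Psmd6 were measured only with marked spots kept. Psmd1 gave 0.08 and -0.29 in FD and 0.33 and -0.18 in FR, and Psmd6 gave -0.12 and -0.19 in FD and 0.13 and -0.14 in FR.

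Several scaffold and lid subunits gave opposite signs on the arrays of a pair, and did so alike in both comparisons. Psmd2 measured -0.39 and 0.20 in FD and -0.40 and 0.21 in FR. Psmd3 measured -0.28 and 0.33 in FD and -0.22 and 0.62 in FR, and Psmd13 -0.10 and 0.40 in FD and -0.12 and 0.43 in FR. The part of the ratio that follows the dye rather than the pool was -0.30 in FD and -0.31 in FR for Psmd2, against dye-swap means of -0.10 and -0.09. Psmd11 is represented by A_52_P447834, which lies on the strand opposite to the probe of its reference transcript, and the latter, with marked spots, measured -0.35 and -0.10 in FD and 0.14 and 0.30 in FR.

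Psmd12, a lid scaffold subunit, had probes that contradicted each other in FR. A_51_P500577 measured -0.15 and -0.31, while A_52_P574190, which lies on the same transcript and has marked spots, measured 0.39 and 0.62. The last probe, A_52_P134381, across an intron and with marked spots, measured 0.30 and 0.06. In FD the means of the 3 probes lay between -0.07 and 0.05. No direction is given for this gene.

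The regulatory particle as a whole, ATPase and non-ATPase, had a median of -0.02 in FD over 14 of its 17 genes and 0.15 in FR over 11. Array 1 gave a median of -0.11 and array 2 of 0.08 in FD, and -0.12 and 0.28 in FR, so the arrays of a pair differed by more than the diets did. On the 11 genes measured on all 4 arrays, FD was lower than FR by a median of 0.17 in the log2 ratio, with 7 genes lower on both arrays and 1 higher. With each array centred on its median in place of loess, this median was -0.01. Over all genes 30.1% were lower on both arrays and 31.2% higher in this difference. With marked spots kept, 9 of 17 were lower on both arrays and 3 higher, with a median difference of -0.15, against 29.4% and 32.4% of all genes. The ATPase ring alone did not keep the difference. Its median was -0.18 over 3 genes, all lower on both arrays, with marked spots left out. With marked spots kept it was 0.02 over 6 genes, with 2 lower and 2 higher on both arrays. The 4 core genes measured on all arrays had a median difference of 0.00, with 1 gene higher and 1 lower on both arrays. Because each diet is 1 pool, this difference has no replicate check.

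**Figure D3:**
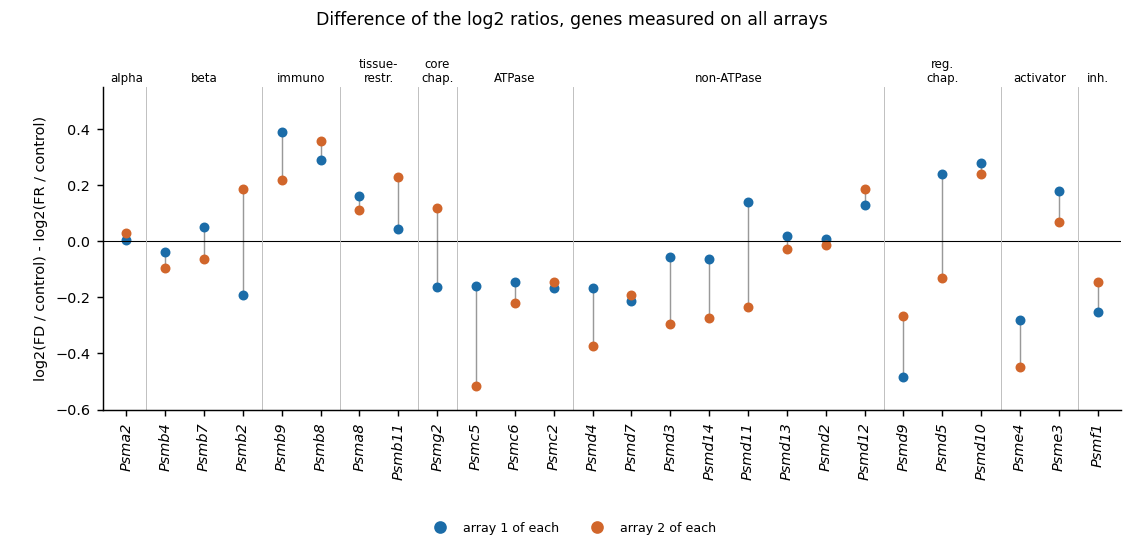
Difference of the log2 ratios, FD minus FR, for the 26 proteasome genes measured on 1 probe over all 4 arrays, grouped by subunit class, with a point per pair of arrays of equal dye orientation. Psmb8 and Psmb9 lie between 0.22 and 0.39, Psmc5 reaches -0.52, Psmd9 -0.48 and Psme4 -0.45, and 7 of the 11 regulatory particle genes lie below 0 on both arrays.

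Among the regulatory assembly chaperones, which place the ATPase subunits into a ring and then leave, 2 had opposite values in FR. Psmd9 measured 9.82 and 9.70 in the FR pool against 9.28 and 9.47 in its control on its intron-spanning probe. This is a log2 ratio of 0.54 and 0.23, a mean of 0.39 or 1.31-fold. In FD the same probe measured 0.06 and -0.03, and the difference between diets passed 1.2-fold on both arrays, where 2.46% of all genes were lower in FD. The second Psmd9 probe, A_51_P251587, measured 0.08 and 0.03 in FR, so the higher value rests on 1 of the 2 probes. Psmd10 (gankyrin), which also binds the retinoblastoma protein, measured 9.92 and 9.75 in the FR pool against 10.14 and 10.10 in its control, or -0.22 and -0.35, a mean of -0.29. In FD Psmd10 measured 0.06 and -0.11. Psmd5 measured -0.09 and -0.07 in FR and 0.15 and -0.20 in FD.

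The core assembly chaperones work in pairs that guide the alpha ring together. Psmg4 measured 11.46 and 11.52 in the FR pool against 11.20 and 11.21 in its control, a log2 ratio of 0.27 and 0.31 and a fold of 1.22. With a marked spot kept it measured 0.14 and 0.03 in FD. Its partner Psmg3, seen only with marked spots, had the opposite sign: -0.31 and -0.21 in FD and -0.36 and -0.27 in FR, and it was the only member at least 1.2-fold lower on both arrays of FR when marked spots were kept. Of the other pair, Psmg1 measured -0.03 and -0.02 in FR, and Psmg2 measured 0.06 and -0.04 in FD on its brighter probe. In FR Psmg2 measured -0.25 and -0.20 on that probe with a marked spot kept, and 0.31 and -0.35 on A_52_P403352. With marked spots kept, 1 of the 4 core chaperones was above control on both arrays of FR and 3 below. Their median was -0.13, and 28.3% of all genes were on either side.

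The activators gave the largest value of the family. Psme4, which encodes the large activator of the nucleus that binds the end of the core without using ATP, measured 13.22 and 13.54 in the FR pool against 12.87 and 12.62 in its control. Its log2 ratio in FR was 0.35 and 0.92, a mean of 0.63 or 1.55-fold. In FD the levels were 12.92 and 13.10 against 12.85 and 12.63, a log2 ratio of 0.07 and 0.47 with a mean of 0.27. The difference FD minus FR was -0.28 and -0.45, past 1.2-fold on both arrays, as for Psmd9. The arrays of a pair differed by much more than the typical gene, with an SD between arrays of 0.40 in FR, so the size is less certain than the sign.

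The other Psme4 probes gave smaller values of the same sign in FR. The probe across an intron nearby, A_52_P344897, measured 0.54 and 0.33 in FR and 0.48 and 0.17 in FD, above control on all 4 arrays but with array 1 higher, the reverse of the brightest probe. The probe further upstream on the same transcript, A_52_P111438, measured 0.06 and 0.28 in FR and -0.06 and 0.04 in FD. The mean of all measured probes was 0.41 in FR and 0.19 in FD. The last Psme4 probe, taken from another transcript record, was not well above background.

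The Psme4 promoter is shown because its gene had the largest ratio. Its window (GRCm38.p6, chr11:30771525-30771824) holds 1 match, in capitals and on the reverse strand, of TGACNNNGC, the core of the antioxidant response element that Nrf1 and Nrf2 bind in many proteasome genes:
Psme4: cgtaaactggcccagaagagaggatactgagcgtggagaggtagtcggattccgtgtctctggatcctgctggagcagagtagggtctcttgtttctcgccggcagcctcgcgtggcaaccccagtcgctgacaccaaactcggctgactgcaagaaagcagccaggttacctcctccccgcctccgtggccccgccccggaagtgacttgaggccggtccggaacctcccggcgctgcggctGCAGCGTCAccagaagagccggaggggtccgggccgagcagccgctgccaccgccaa
The same letters stood in 6 of 43 member promoters (Psmb5, Psmb6, Psmc6, Psmd12, Psmd9 and Psme4), or 13.95%, against 12.4% of all promoters. Of 16 genes in a list of Nrf1, Nrf2, their partners and targets, the measured ones had a median of 0.03 in FD and -0.07 in FR. Nqo1, a classical Nrf2 target, measured 0.31 and 0.18 in FD and 0.23 and 0.16 in FR. Slc7a11, a cystine transporter, measured 0.07 and 0.00 in FD and 0.26 and 0.19 in FR. Gclm, of glutathione synthesis, measured -0.15 and -0.28 in FD and -0.13 and -0.29 in FR.

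The interferon-inducible activator pair differed from Psme4. Psme2 measured -0.01 and -0.04 in FD, and in FR, with marked spots kept, -0.22 and -0.47. Psme1, its partner in the same ring, was measured with marked spots kept at 0.06 and -0.11 in FD and -0.13 and -0.07 in FR. Psme3, the nuclear relative of this pair, measured 0.35 and -0.20 in FD and 0.17 and -0.27 in FR, with array 1 higher both times. The activator median in FR was 0.29 over the 2 measured genes and -0.08 over all 4 with marked spots kept, so no direction holds for the class.

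Psmf1, an inhibitor that competes with activators for the core, measured 9.62 and 9.75 in the FR pool against 9.45 and 9.27 in its control, a log2 ratio of 0.17 and 0.48. A second probe, A_52_P66313, measured 0.22 and 0.50 in FR. The third, A_51_P274593, measured 0.05 and -0.30, so the probes did not share a direction. In FD Psmf1 measured -0.08 and 0.33.

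The tissue-restricted core subunits, Psma8 of testis and Psmb11 of thymic cortex, are near background in brain. Psma8 measured 0.24 and 0.03 in FD and 0.08 and -0.08 in FR. Psmb11 measured 0.09 and 0.19 in FD and 0.05 and -0.04 in FR. Psmc3ip, held apart, measured 0.08 and -0.23 in FD and 0.01 and -0.04 in FR.

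**Figure D4:**
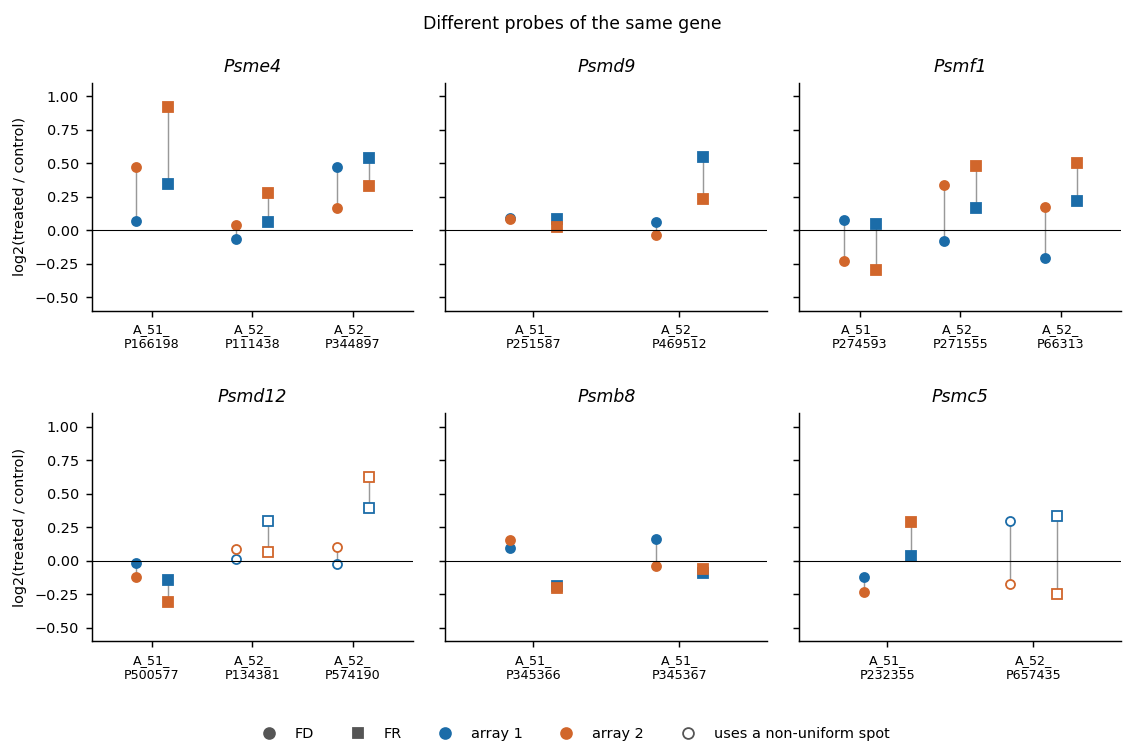
Log2(treated/control) of each measured probe of Psme4, Psmd9, Psmf1, Psmd12, Psmb8 and Psmc5, with circles for FD, squares for FR, a colour per array and open symbols for probes with a spot marked as uneven. The Psme4 and Psmb8 probes keep their side of 0 in FR, while the Psmf1 and Psmd12 probes lie on both sides.

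Read together on their sign, 9 members were above control on both arrays of FD and 4 below, or 29.0% and 12.9% of 31. In FR 11 were above and 7 below, or 34.4% and 21.9% of 32. Of all genes, 25.5% were above and 23.3% below in FD, and 28.3% and 27.4% in FR. With each array centred on its median in place of loess, 1 member was above and 1 below in FD, and 0 and 2 in FR. The members' counts thus depend on the normalisation. The shares of all genes under this centring were not counted. With marked spots kept, 15 of 48 members were above and 7 below in FD, against 26.3% and 22.7% of all genes, and 16 above and 12 below in FR, against 28.3% of all genes on either side.

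Genes upstream of the proteasome were read from lists chosen with earlier results of these data known. In none of the 7 lists did a gene pass 1.5-fold on both arrays of FD or FR. Among 18 further proteasome-bound factors and ubiquitin shuttles, 17 were on the array. Rad23b, a shuttle that carries ubiquitin-marked proteins to the proteasome, measured 0.70 and 0.11 in FD and 0.99 and 0.41 in FR, above control on all 4 arrays. Ubqln1, another shuttle, measured -0.38 and -0.41 in FR on A_52_P322658 but 0.18 and 0.16 on the brighter A_52_P434974 with marked spots. Of the 16 measured genes of this list, 2 were 1.2-fold higher and 1 lower on both arrays of FR, against 3.85% and 4.2% of all genes, and 0 in FD. The 1 lower was Ubqln1, and with marked spots kept 2 were higher and 0 lower.

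In the list of 6 genes of ubiquitin and its activating enzymes, the arrays of the FD pair differed strongly: the list medians were 0.25 on array 1 and -0.45 on array 2. Of 14 genes of Vcp, the ATPase that extracts proteins for degradation, and its cofactors, Derl1 of the endoplasmic reticulum channel measured -0.35 and -0.34 in FD and -0.83 and -0.26 in FR on A_52_P462316. Its brighter probe with marked spots, A_51_P217236, had the opposite sign on all 4 arrays, at 0.24 and 0.22 in FD and 0.33 and 0.47 in FR, so no direction is given for Derl1. Derl2, its relative, measured 0.10 and -0.35 in FD and -0.45 and -0.76 in FR. The list median was -0.02 in FD and 0.03 in FR.

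Of 8 ubiquitin ligases and factors of fasted muscle, Fbxo32 (atrogin) measured 0.39 and 0.64 in FR, and Nedd4 measured -0.79 and -0.25 in FD on A_51_P295022. The brighter Nedd4 probe with marked spots, A_52_P648424, measured 0.02 and -0.25 in FD. Of 14 autophagy genes, Gabarapl2 measured 0.42 and 0.16 in FD and 0.50 and 0.29 in FR, and Atg5 0.24 and 0.32 in FR. The autophagy median was -0.01 in FD and 0.12 in FR, with 5 of 11 measured genes above control and 1 below on both arrays of FR, against 28.3% and 27.4% of all genes. The FR median was 0.08 with marked spots kept, with 6 of 13 above and 4 below.

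Markers of other tissues also differed between the pools. All 7 measured skeletal muscle markers were over 1.5-fold lower on both arrays of FD, with a median of -2.13, and their median in FR was 0.02. Their summed log2 level was 10.94 and 10.92 in the FD pool against 13.06 and 13.02 in its control. In the FR pool the sum was 11.28 and 11.27, against 11.32 and 11.27 in its control. The FD control thus had the highest level of the pools. The neutrophil markers had a median of 0.38 in FR, led by S100a9 at 0.84 and 1.26 on its arrays, and -0.07 in FD. Neuron markers were measured for 5 genes, with medians of -0.12 in FD and -0.10 in FR. The summed log2 level of these neuron markers ranged from 15.71 to 15.88 over all pools and arrays. The part of these tissues in the proteasome values was not tested.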

How the data were processed

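The 4 scanner files hold, per the file headers, uncorrected mean spot intensity and median local background intensity in green and red from Agilent Feature Extraction 9.5.3.1, per the submitters' processing notes. Per the file headers, the deposited log10 ratio (red to green) had its background subtracted and its dyes normalised by that software. The authors' deposited value table equals this ratio as log2 of treated over control on spots well above background (r of 1 or -1 before turning dye-swapped arrays); on dim spots its making is unknown.

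Intensities were corrected with normexp (offset 50, which understates ratios of dim genes) and loess-normalised within each array in limma 3.58.1 (R 4.3.3), with control spots at weight 0 and then left out. Left out before this were 3 spots of FD (array 1) and 44 of FR (array 2) whose local background exceeded its median by a factor of 2. Spots with the software's non-uniformity mark were left out, and the reading with them kept was added after the data were seen. Spots of 1 probe were averaged, and ratios of swapped arrays were turned. A probe counted as measured if both pools gave signal well above background on each array of the pair, and a gene was read from its brightest such probe. Log2 levels are channel signals after loess and quantile scaling of mean brightness.

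Each diet is 1 pool, so no p-value was computed. Counts use 1.5-fold, 1.2-fold or 1 side of 0 on both arrays. The number of arrays limits the precision. Members and lists were chosen with earlier results of these data known. Named members are the 2 with the largest absolute mean per class and comparison, the catalytic and immunoproteasome subunits, members with opposite signs under the diets and members whose probes disagree; others are given to complete their class. The 2 genes of each list with the largest absolute mean are candidates for naming. RefSeq promoters (GRCm38.p6) matched 40 of the 48 genes by symbol. The scripts were tested on simulated data. Tables were made with Python 3.11.15 and pandas 2.3.3.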

Additional observations from a re-analysis of the deposited data

Results flagged for a closer look

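Of the members measured on 1 probe over all 4 arrays, 4 lay on one side of the control on both arrays of FD and on the other side on both arrays of FR. The difference FD minus FR in log2 ratio was 0.32 for Psmb8, 0.30 for Psmb9, -0.16 for Psmc2 and -0.34 for Psmc5. These differences were not tested, since each diet is 1 pool. How many of all genes had opposite signs in this way was not counted. The count of 4 therefore cannot be read as a trait of the proteasome genes. Of all genes, 25.5% were above and 23.3% below control on both arrays of FD, and 28.3% and 27.4% on both of FR. Other probes did not repeat the pattern in FD. The brighter probes with marked spots measured -0.07 and 0.05 for Psmc2 and 0.29 and -0.18 for Psmc5, and the second Psmb8 probe 0.16 and -0.04.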

How the results depend on the processing

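No paired analysis was possible because the values come from no test and the arrays of a pair hold the same pools. Psme4 in FR stayed above control under each of the 10 alternatives, between 0.35 and 0.92, and Psmb8 and Psmb9 in FR stayed below control. With 1 pool per diet and spots near background for Psmb8 and Psmb9, differences near the technical SD of 0.07 log2 units cannot be read as differences between pools. This SD belongs to 1 dye-swap mean, while FD minus FR combines 2 of them, and it covers no difference between probes. With marked spots kept, 17 members had several measured probes in FR. Their median range between probes was 0.19 log2 units, and in 11 of the 17 the probe means shared a sign. The cause of the changes below was not tested. Shares of all genes were not counted under these settings, except with marked spots kept. The other counts below therefore show how the results depend on the processing and no trait of the members.
With each array centred on its median in place of loess, the median of all members was 0.13 in FD and FD minus FR was 0.11, for the core 0.17 and for the regulatory particle -0.011. The medians were then 0.015 for the ATPase ring and 0.10 for core chaperones in FD, and in FR -0.029 for the alpha ring, -0.22 for the immunoproteasome, 0.041 for the ATPase ring, -0.15 for regulatory chaperones and 0.22 for activators. Counts of members above and below control on both arrays were 1 and 1 in FD and 0 and 2 in FR, and 0 were 1.2-fold higher in FR.
With normexp fitted on all spots, FR medians were 0.17 for the alpha ring, -0.11 for the immunoproteasome, -0.13 for regulatory chaperones and 0.35 for activators, and 1 member was 1.2-fold higher. With no background correction, the FR medians were -0.19 for the immunoproteasome and 0.11 for the ATPase ring.
In the scanner software's ratio and in the authors' value table, the immunoproteasome median was 0.16 in FD and -0.33 in FR, the ATPase ring was at 0.17 in FR, core FD minus FR at 0.014, 2 members were 1.2-fold lower in FR and 1 other pathway gene was 1.5-fold lower in FR. With the mean of all probes, FR medians were -0.18 for the immunoproteasome, 0.14 for the ATPase ring and 0.18 for activators.
With spots marked as uneven kept, a reading added after the data were seen, the ATPase ring was at 0.0048 in FD and 0.0073 in FR, the alpha ring at 0.13, the immunoproteasome at -0.20 and the activators at -0.077 in FR. Members above and below control on both arrays were 15 and 7 in FD, 12 were below in FR and 1 was 1.2-fold lower. Psmc2 in FR was at -0.027, Psmc5 in FD at 0.058, Psmd12 at 0.037 in FD and 0.51 in FR, and Psmd7 in FR at -0.046.
On a single array, the ranges were -0.063 to 0.060 for the ATPase ring and -0.039 to 0.068 for activators in FD, and in FR 0.036 to 0.075 for the ATPase ring and -0.025 to 0.27 for core chaperones, and FD minus FR of all members ranged from -0.077 to -0.015. Counts on a single array ask that 1 array passes in place of both. Members above control numbered 14 to 22 in FD and 16 to 20 in FR, and below 9 to 17 and 12 to 16. Members 1.2-fold higher numbered 1 to 6 in FD and 5 to 11 in FR, lower 0 to 4 and 1 to 4, and 1.5-fold higher in FR 0 to 2. Other pathway genes 1.5-fold higher numbered 0 to 3 in FD and 2 on either array of FR, and lower 1 on either array of FD and 2 to 4 in FR.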
